A study of Schizosaccharomyces pombe with 26 samples.

Results

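Histone H3 chromatin immunoprecipitation (ChIP) over the intergenic regions of the fission yeast *Schizosaccharomyces pombe* was compared between a strain lacking *med15* and wildtype. The comparison rests on 4 of the 26 samples of the series, 2 of each strain, chosen by their strain, antibody and array type in the labels. Both strains were grown to mid-log phase in the rich medium YES and fixed with formaldehyde, and chromatin was precipitated with the antibody ab1791 against H3. The strains are wildtype, delta-med15 (Δmed15 here) and, in the same fit only, 3 samples of delta-hrp1 (Δhrp1), which lacks a chromatin remodelling ATPase. The sources used here do not say how the genes were deleted or how many clones were used. Each array carried ChIP DNA in one dye and input DNA of the same preparation in the other. The ChIP DNA was in Cy3 on both wildtype arrays and on Δmed15 replicate 2, and in Cy5 on Δmed15 replicate 1. The labels call the replicates independent experiments without saying that each had its own culture, so the p-values measure the spread between these samples, which may in part be technical.

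Mediator is the large complex that carries signals from DNA-bound transcription factors to RNA polymerase II, and Med15 belongs to its tail, the part that many activators contact. Histone H3 is a core subunit of every nucleosome. In yeasts the regions upstream of active genes are typically poor in nucleosomes, so intergenic H3 ChIP is commonly used to see where promoters are open. The series asks how Med15 relates to Hrp1 and to chromatin, and this comparison asks where H3 signal over intergenic DNA differs without Med15.

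The promoters of 3 genes and 6 tRNA genes are shown because the features that passed the test, and the group of features that lay lowest in Δmed15, carry their names. All sequences are RefSeq's, assembly ASM294v3, read 5′ to 3′ on the strand of the gene. For the array design itself the sources name no build. A promoter stretch runs from the annotated transcript start back to the next protein-coding gene, so no transcribed sequence of the gene is in it. Capitals in the promoters mark runs of 6 or more A or T (AAAAAA or TTTTTT and longer), whose relation to H3 signal was not tested. Of 2927 upstream windows of 250 bases in the genome, 58.6% hold such a run. One of the 3 promoters does, that of *SPAC1952.04c* (chrI:4973411-4973623, minus strand). Those of *tom20* (chrI:1321137-1321278, plus strand) and *thi4* (chrI:1589731-1589932, plus strand) hold none in the stretch shown. The 3 stretches are 213, 142 and 202 bases long, shorter than the 250-base windows, so the 58.6% is not a like-for-like figure for them.
SPAC1952.04c: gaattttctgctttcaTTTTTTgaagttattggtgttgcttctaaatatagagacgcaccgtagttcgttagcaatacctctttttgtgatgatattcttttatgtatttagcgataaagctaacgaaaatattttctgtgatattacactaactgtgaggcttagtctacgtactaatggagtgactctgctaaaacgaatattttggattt
tom20: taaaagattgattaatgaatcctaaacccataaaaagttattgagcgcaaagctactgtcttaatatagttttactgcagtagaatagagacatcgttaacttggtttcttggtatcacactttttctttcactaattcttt
thi4: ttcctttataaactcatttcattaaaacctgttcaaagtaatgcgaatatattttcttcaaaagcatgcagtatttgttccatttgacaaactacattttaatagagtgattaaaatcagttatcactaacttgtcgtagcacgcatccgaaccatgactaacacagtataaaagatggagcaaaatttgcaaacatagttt

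In the tRNA genes capitals mark TTCGA, searched on the gene's own strand. It is the core of the B box, the internal promoter element bound by TFIIIC, and 82.5% of the 171 nuclear tRNA genes hold it. The names of 11 of the 18 tRNA features give coordinates that match a tRNA gene of the assembly exactly, all of them on chromosome III, and 6 of the 11 are shown: the one that passed the test, 3 with lower and 2 with higher means in Δmed15. The choice of these 6 was made after their values were seen. The Ala gene lies at chrIII:1065044-1065117 (minus strand), the Arg gene at chrIII:578847-578919 (plus), the Asp gene at chrIII:1068029-1068099 (plus), the Glu gene at chrIII:140967-141038 (plus), the Ile gene at chrIII:817425-817498 (plus) and the Ser gene at chrIII:473199-473280 (minus). Most have identical copies elsewhere: 9 genes share the Ala sequence, 7 the Asp and the Ser sequences each, 6 the Glu sequence and 2 the Ile sequence, while the Arg sequence occurs once. DNA of a copy can hybridise to the same spot, so values of these features are uncertain as to the locus.
tRNA-Ala (AGC): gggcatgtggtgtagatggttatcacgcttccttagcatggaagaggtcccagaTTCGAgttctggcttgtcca
tRNA-Arg (TCT): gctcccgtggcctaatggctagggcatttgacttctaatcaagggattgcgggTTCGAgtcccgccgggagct
tRNA-Asp (GTC): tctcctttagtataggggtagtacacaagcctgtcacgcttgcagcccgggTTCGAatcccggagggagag
tRNA-Glu (CTC): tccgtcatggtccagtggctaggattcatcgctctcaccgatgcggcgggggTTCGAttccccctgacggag
tRNA-Ile (AAT): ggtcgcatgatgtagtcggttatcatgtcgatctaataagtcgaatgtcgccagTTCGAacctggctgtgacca
tRNA-Ser (AGA): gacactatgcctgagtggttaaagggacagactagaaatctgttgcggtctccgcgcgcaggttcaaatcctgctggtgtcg

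The values are the deposited log2 signals of the ChIP channel, with each array's median set to 0, so a value of −1 is 0.5 times the signal of the middle feature of that array. They are not divided by input. Wildtype has no input channel in the files used here, so the differences below are differences in ChIP signal and not in H3 occupancy. The table held 4883 intergenic features, nearly all printed as 2 spots, and 4851 of them were measured on all 4 arrays. The spread of features on an array (median absolute deviation) was 1.32 and 1.46 log2 units in wildtype, 1.39 and 1.38 in Δmed15 and 1.22 to 2.22 in Δhrp1, where replicate 1 was the widest. The median gap between duplicate spots of the same array was 0.14 to 0.18 on the 4 arrays. Empty positions served as the background: 208 features whose names end in Missing had 95th percentiles of −2.74 and −2.41 on the wildtype arrays and −3.66 and −6.71 on the Δmed15 arrays. Features with a strain mean below −4 are called near background here. There were 10 of these in wildtype and 45 in Δmed15.

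The deleted gene was examined first. The coding feature of *med15* read −1.53 and −1.19 in wildtype and −4.47 and −3.78 in Δmed15. The intergenic feature of *med15* read −0.34 and −0.15 in wildtype and −2.24 and −1.97 in Δmed15. Both features were thus lower on each Δmed15 array than on each wildtype array. For the intergenic feature the fitted difference was −2.43 ± 1.22 (SE of the limma fit), with an adjusted p of 0.315, and input DNA on the Δmed15 arrays was close to each array's median there (−0.04 and 0.59 log2). The intergenic feature of *hrp1*, which is intact in this strain, read −0.98 and −0.88 in wildtype and −0.92 and −0.20 in Δmed15.

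H3 signal changed at few intergenic features by the test across all 7 arrays. Of 4878 features tested, 9 passed (0.185%), 2 of them higher in Δmed15 (0.041%) and 7 lower (0.144%), by limma (terms for strain and ChIP dye, Benjamini-Hochberg adjusted p under 0.05). At an unadjusted p under 0.05 there were 384 higher and 544 lower. The fitted differences below are adjusted by the dye term, which is estimated from the deletion arrays. At the 7 lower features they are larger than the plain differences between the strain means. All 9 that passed had a mean below −4 in 1 of the strains, the level called near background here. Against the 95th percentile of the empty features, 3 of the 7 falls were at or below it on Δmed15 replicate 1. On replicate 2 the comparison cannot be made. There 413 of 416 empty spots were at the floor, so the percentile is the floor, and values at the floor were set to missing. The count moved a great deal with the arrays and terms in the fit. Without Δhrp1 replicate 1 it was 569. With the 4 arrays of the comparison alone and no dye term it was 1801 (36.9% of 4880, with 18.1% higher and 18.8% lower). Without Δhrp1 replicate 3 it was 0, and Δmed15 replicate 1 was then the only array with ChIP DNA in Cy5. With the replicate number as a further term it was also 0, though the labels do not say that the numbers mark a shared day or culture.

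**Figure D1:**
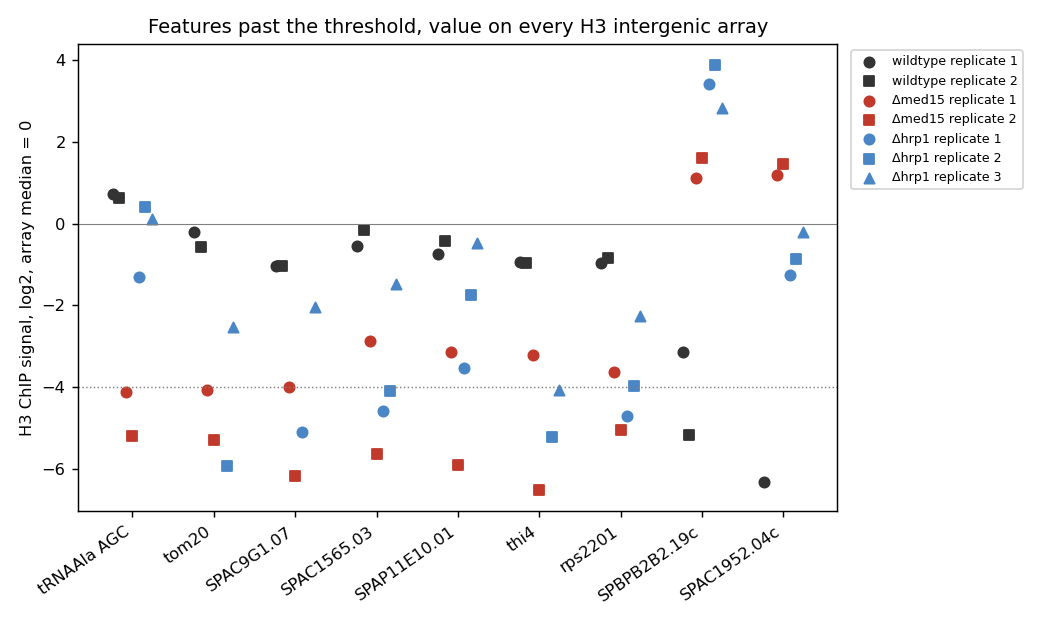
H3 ChIP signal (log2, array median at 0) of the 9 features that passed, one point per array, for 2 wildtype, 2 Δmed15 and 3 Δhrp1 arrays; the dotted line at −4 marks the level called near background, and a missing point is a value at the floor. In 7 features both Δmed15 points lie below both wildtype points, and in the other 2 they lie above.

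One rise was at the feature of *SPAC1952.04c*, an uncharacterized conserved fungal protein gene whose promoter is printed above. It read −6.32 on wildtype replicate 1, was at the floor on wildtype replicate 2, and read 1.20 and 1.45 in Δmed15. The signal went from the level of empty positions to above the array median. The fitted difference was 7.46 ± 0.79 (adjusted p = 0.0153, limma), with 1 wildtype value in the fit, so that the spread is taken from the other strains. Since wildtype was within background, only a bound holds: against the 95th percentile of the empty features on the wildtype arrays, Δmed15 was at least 14.95-fold higher. The 3 Δhrp1 arrays read −1.26, −0.87 and −0.21. The coding feature of the same gene read 0.93 and 1.27 in wildtype and 1.09 and 0.96 in Δmed15, values that overlap.

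The other rise was at *SPBPB2B2.19c*, a subtelomeric gene of chromosome II that encodes a membrane protein of a family specific to this yeast. It read −3.13 and −5.17 in wildtype and 1.12 and 1.61 in Δmed15, a fitted difference of 5.85 ± 0.79 (adjusted p = 0.0229, limma) and at least 15.3-fold by the same bound. Subtelomeric genes of this kind have relatives with similar sequence, so the locus behind the signal is uncertain. The feature also read high in Δhrp1, from 2.82 to 3.87. Both deletion strains therefore lay above both wildtype arrays, which all these comparisons share. Its coding feature went the other way, 1.05 and 1.48 in wildtype against −0.79 and −0.21 in Δmed15.

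One fall was at the tRNA-Ala (AGC) feature. It read 0.72 and 0.64 in wildtype and −4.12 and −5.19 in Δmed15, a fitted difference of −5.73 ± 0.73 (adjusted p = 0.0226, limma). Wildtype was above the array median and Δmed15 near background, with no overlap. The Δhrp1 arrays read −1.32, 0.40 and 0.12.

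The feature of *tom20*, which encodes a receptor of the mitochondrial outer membrane translocase, had a fitted difference of −5.46 ± 0.75 (adjusted p = 0.0324, limma). Between the strain means the difference was −4.30. It read −0.21 and −0.56 in wildtype and −4.07 and −5.30 in Δmed15. The feature of *thi4*, a thiamine biosynthesis enzyme gene, read −0.94 and −0.96 in wildtype, then −3.22 and −6.52 without *med15*. The fitted difference of *thi4* was −5.03 ± 0.74 (adjusted p = 0.0481, limma), against −3.92 between the strain means. Its 2 Δmed15 arrays differed from each other by more than 3 log2 units, although both lay below wildtype. The coding feature of *thi4* read 2.04 and 2.14 in wildtype and 2.09 and 2.11 in Δmed15, so no such gap was seen over the gene body. That of *tom20* read −1.23 and −2.06 in wildtype and −3.16 and −2.82 in Δmed15, lower in the deletion as its intergenic feature was. In Δhrp1, compared with the same wildtype arrays, *tom20* was at the floor and at −5.93 and −2.52, and *thi4* at the floor and at −5.22 and −4.06.

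The feature of *rps2201*, a gene for a protein of the small ribosomal subunit, had a fitted difference of −4.33 ± 0.62 (adjusted p = 0.0311, limma). It read −0.95 and −0.85 in wildtype and −3.62 and −5.05 in Δmed15, a difference of −3.43 between the strain means. Ribosomal protein genes are mostly present in copies, so this call is uncertain as to the gene. The other 3 falls were at *SPAC9G1.07*, a gene specific to this genus (−5.36 ± 0.65, adjusted p = 0.0226), *SPAC1565.03*, an uncharacterized gene (−5.33 ± 0.61, adjusted p = 0.0153), and *SPAP11E10.01*, of the ornithine cyclodeaminase family (−5.15 ± 0.75, adjusted p = 0.0311), all by the same fit. In these 3 the wildtype arrays read between −1.03 and −0.15 and the Δmed15 arrays between −6.17 and −2.88. The Δhrp1 arrays were also below both wildtype arrays at *rps2201* (−4.70, −3.98 and −2.27), *SPAC1565.03* (−4.57, −4.10 and −1.47) and *SPAC9G1.07* (−5.10, the floor and −2.05). At *SPAP11E10.01* they read −3.53, −1.75 and −0.47 and overlapped wildtype. The lowest Δmed15 value was on replicate 2 in all 7 falls, whose ChIP background was the lower (7.5 scanner units against 456 on replicate 1). Coding features were lower in Δmed15 at *rps2201* (−0.05 and −0.63 in wildtype, −2.81 and −2.85 in Δmed15) and *SPAC1565.03* (−1.09 and −1.09, −3.52 and −4.60). They were higher at *SPAC9G1.07* (−0.99 and −2.08, 0.79 and 0.47) and *SPAP11E10.01* (−1.25 and −1.06, −0.45 and −0.40).

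Input DNA was also dim at the falls. On the Δmed15 arrays all 7 lay in the lowest 10% of features by input signal. At *tom20* the input spot read 45.3 scanner units over a local background of 2.75 on replicate 1, where the median feature read 1687 over 1. On replicate 2 it read 1446 over 717, against a median of 4133 over 727. At *thi4* the input of replicate 1 was 7 over 4.5, where empty positions had a median of 2. At both rises input was brighter than the array median, by 0.98 to 1.12 log2 units. No wildtype input was at hand to compare with, so the part of spot DNA or labelling in these calls was not tested.

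Most of the difference between the strains followed the position of the spots on the glass. Each array was printed in 48 blocks, 12 rows by 4 columns, and the median difference (Δmed15 minus wildtype) of a block ran from −1.87 in block 45 to 1.95 in block 15. In 6 blocks it was below −1 and in 7 above 1. The print block accounted for 57.0% of the variance of the difference over 4851 features, against 33.7% for the wildtype mean and 10.3% for the Δmed15 mean. Between the 2 arrays of a strain the share was 43.4% in wildtype and 42.6% in Δmed15, over smaller differences (standard deviations of 0.65 and 0.61 log2 units against 1.20). A block is a position on the array, and its part in a single feature's difference was not tested.

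**Figure D2:**
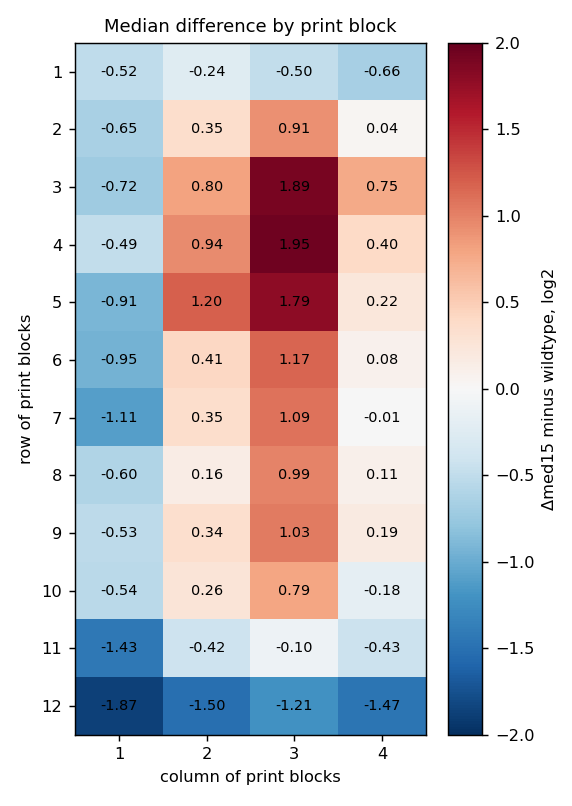
Median of Δmed15 minus wildtype H3 signal (log2) in each of the 48 print blocks, laid out as on the array. The highest block, at 1.95, is in the third column and the lowest, at −1.87, in the bottom row.

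Setting the median of each print block of each array to 0 in place of 1 median per array brought the strains closer. The standard deviation of the difference went from 1.20 to 0.79. The correlation across features between a wildtype and a Δmed15 array was 0.51 to 0.70 before and 0.77 to 0.79 after, while within a strain it was 0.90 and 0.91 before and 0.91 and 0.94 after. Features with a difference over 1 log2 unit either way numbered 1851 before and 836 after, and 1444 features changed sign. These correlations are across features of the same arrays, which are not independent. Values by print block are given beside many of the results below.

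**Figure D3:**
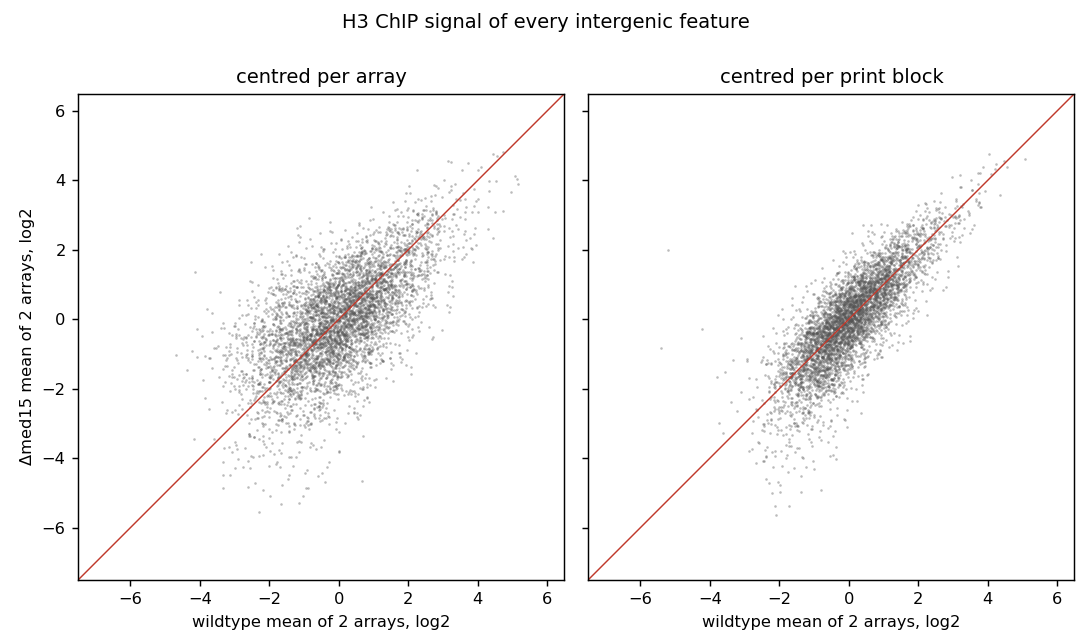
Mean H3 ChIP signal (log2) of each of 4851 intergenic features in Δmed15 (y axis) against wildtype (x axis), with array medians at 0 on the left and print block medians at 0 on the right; the line marks equal values. The cloud is narrower on the right, with a standard deviation of the difference of 0.79 against 1.20.

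By print block the same 7-array fit again passed 9 features (0.185%), and 6 of the 9 were shared. Those shared were *SPAC1952.04c* (8.04 ± 0.58), *SPBPB2B2.19c* (7.66 ± 0.93), *SPAC9G1.07* (−4.78 ± 0.45), *tom20* (−4.48 ± 0.48), *SPAP11E10.01* (−4.47 ± 0.58) and *rps2201* (−3.64 ± 0.49). The tRNA-Ala feature (−3.93 ± 0.62, adjusted p = 0.0715), *SPAC1565.03* (−4.44 ± 0.67, adjusted p = 0.0713) and *thi4* (−4.06 ± 0.92, adjusted p = 0.163) missed the threshold. The 3 that passed only by print block were *pkl1*, a minus-end directed kinesin gene (−3.81 ± 0.43), *etf2*, for the alpha subunit of the electron transfer flavoprotein (−4.03 ± 0.49), and a feature of *ctr1* (−3.76 ± 0.48), named after their values were seen. With print blocks and the 4 arrays alone, chosen after seeing the data, 894 of 4880 passed (18.3%), 386 higher (7.91%) and 508 lower (10.4%), among them 7 of the 9. In that fit 522 features passed in the same direction as in the 4-array fit by array median.

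Among features with both strain means above −4 none passed by limma, with 880 at an unadjusted p under 0.05, and the 10 on each side with the smallest unadjusted p are described here. The 10 higher in Δmed15 were 3.00 to 4.18 log2 units higher by array median and 1.28 to 2.23 by print block. All 10 lay in 4 print blocks whose own medians were 0.94 to 1.95 higher in Δmed15. The 10 lower were 2.73 to 4.07 lower by array median and 1.64 to 2.46 lower by print block, in 7 blocks whose medians were 0.54 to 1.87 lower. In all 20 the strains remained apart on every array under both centrings, and 9 of each 10 passed in the 4-array fit by print block, but the choice of these features by their difference makes that a description only.

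Of the higher ones, *ept1*, of the CDP-alcohol phosphatidyltransferase family, read −2.04 and −1.38 in wildtype, against 2.17 and 1.59 without *med15* (3.59 ± 0.66, limma adjusted p = 0.0685). *ned1*, the lipin phosphatidate phosphatase gene, read −2.29 and −1.56 against 1.76 and 1.32, and *ymr1*, for a myotubularin family phosphoinositide phosphatase, −1.15 and −1.71 against 1.58 and 1.56. Each lay below the array median in wildtype and above it in Δmed15. By print block wildtype lay nearer its median, at −0.02 and 0.30 for *ept1* and 0.29 and −0.43 for *ymr1*. For *ned1* it read −1.18 and 0.56 by print block. *atp16*, for a subunit of the mitochondrial ATP synthase, had the widest gap of the 10, −2.11 and −2.97 against 2.09 and 1.20. By array median *thc1*, *SPAPB24D3.03* (an agmatinase gene), *ptb1* (for a subunit of a prenyl transferase) and a long tile of *SPBP4H10.14c* followed the same course. *ubc14*, for a ubiquitin conjugating enzyme, and *coq6*, for a monooxygenase of ubiquinone synthesis, rested below the array median in both strains. *ubc14* read −4.09 and −3.81 against −0.26 and −0.68, and *coq6* −3.54 and −3.08 against −0.17 and −0.34. At these 2 both wildtype arrays were within the level of the empty features, so only bounds can be given. By array median Δmed15 was at least 4.31-fold and 5.00-fold higher. By print block the differences were smaller, 1.71 and 1.28 log2 units, so these bounds hold for array medians only.

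The lower ones include *mei3*, the inducer of meiosis, which read 1.66 and 2.50 in wildtype and −1.81 and −1.32 in Δmed15 (−3.91 ± 0.73 by the fit, adjusted p = 0.0685, limma). *acs1*, for acetyl-CoA ligase, read 1.65 and 2.50 against −1.62 and −1.12, and *tos4*, annotated as a transcription factor gene, 1.37 and 1.77 against −1.02 and −1.63. These 3 were above the array median in wildtype and below it in Δmed15. *erg7* (lanosterol synthase), *cox18*, *iwr1* (nuclear import of RNA polymerase II), *ecm33*, *odr1*, *lsg1* (a subunit of the Lsk1 kinase complex) and 1 feature without a gene name were the others. In 5 of the 10 the Δmed15 input was in the lowest 10%, and in none of the 10 higher ones. At *erg7* the input of replicate 1 was 13.8 over a background of 0, although its coding feature had 2.05 and 2.27 in wildtype and 2.26 and 2.29 in Δmed15.

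Gene groups were read against all features, whose median difference was −0.03 by array median and −0.01 by print block. Where groups did not overlap, 33.6% of all features were higher in Δmed15 and 37.1% lower by array median, and 32.8% and 34.4% by print block. Figures for a group are medians and counts, with no test of the group.

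The tRNA features lay lower in Δmed15. Of 17 measured on all 4 arrays, 14 were lower and 3 higher, with a median of −0.88, and by print block 15 were lower and 2 higher with a median of −0.70. In 12 of the 17 both Δmed15 arrays lay below both wildtype arrays and in none above, and by print block in 11 and none. The Ala feature alone passed the main test. Of the genes printed above, tRNA-Arg (TCT) read −1.20 and 0.06 in wildtype and −2.54 and −3.11 in Δmed15 (−1.50 by print block), tRNA-Asp (GTC) −0.41 and −0.33 against −2.22 and −2.91 (−1.25), and tRNA-Glu (CTC) −0.63 and 0.12 against −1.85 and −2.63 (−1.31). These 3 carry TTCGA, as the Ala gene does. The tRNA-Ile (AAT) feature, which also carries it, read −0.38 and −1.40 against 0.32 and −0.60 (0.007 by print block), and the tRNA-Ser (AGA) feature, without it, −0.45 and −2.33 against −0.31 and −1.02 (−0.023), so these 2 overlapped. Whether the letters go with lower signal was not tested. Of the genes shown, chosen after their values were seen, only the Ser gene lacks TTCGA. The median input of the tRNA features on the Δmed15 arrays was −0.32 by print block.

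**Figure D4:**
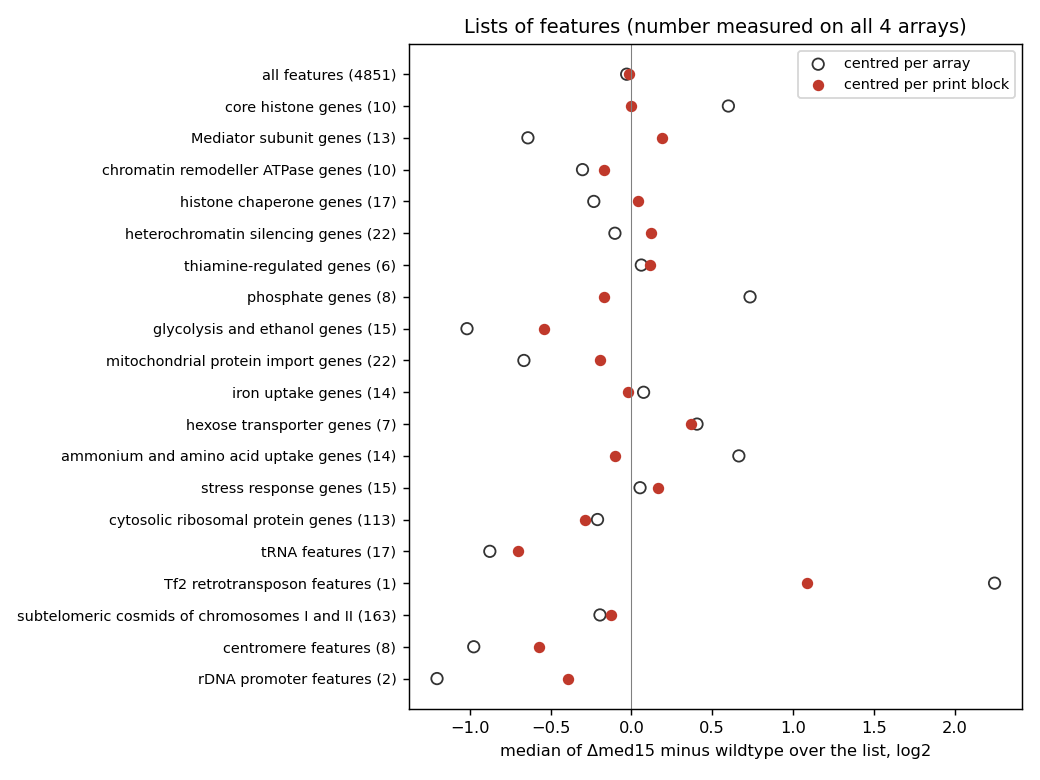
Median difference in H3 ChIP signal (Δmed15 minus wildtype, log2) for each group of features by array median (open) and by print block (filled), with the number of features measured on all 4 arrays. The tRNA, centromere and glycolysis groups lie below all features under both centrings, while the Mediator, phosphate and amino acid uptake groups change sign between them.

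Features of cytosolic ribosomal protein genes leaned the same way, less far. Of 113, 65 were lower and 48 higher (median −0.21), and by print block 78 were lower and 35 higher (median −0.29). In 55 the Δmed15 arrays lay below wildtype without overlap and in 30 above, and by print block in 60 and 20. Their input was above the block median in Δmed15, by 0.33. Only *rps2201* passed the main test, and members of this group share sequence with copies.

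Glycolysis and ethanol genes, which are among the most transcribed of a culture growing on glucose, had a median of −1.02 over 15 features, 10 lower and 5 higher, and −0.54 by print block, 9 lower and 6 higher. In 9 the Δmed15 arrays were lower without overlap and in 3 higher, and by print block in 8 and 3. None passed. The 2 with the smallest p were *pgk1* (phosphoglycerate kinase), −1.43 and −1.44 in wildtype and −3.77 and −5.20 (near background) in Δmed15 (−2.64 by print block), and *pyk1* (pyruvate kinase), 1.32 and 1.38 in wildtype and −0.98 and −0.62 in Δmed15 (−1.64). The median input of the group was high in Δmed15 (1.55 by print block), but its members differed. By print block the Δmed15 input was −0.63 and −0.55 at *pgk1* and 1.46 and 1.64 at *pyk1*. The part of input in these differences was not tested.

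Mitochondrial protein import genes had a median of −0.66 over 22 features, 14 lower and 8 higher, and −0.20 by print block with the same counts. *tom20*, given above, was the only member to pass. Of 6 thiamine-regulated features 3 were lower and 3 higher under both centrings, and only *thi4* passed.

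Features named for Mediator subunit genes showed how far the centring matters. Over 13 features the median was −0.64 by array median, with 8 lower, and 0.19 by print block, with 4 lower. None passed. The 2 with the smallest p were *med6*, a head subunit, −1.72 and −3.27 in wildtype and 1.28 and 0.87 in Δmed15 (1.63 by print block), and *srb11*, the cyclin of the kinase module, −0.80 and −1.52 against 1.69 and 1.06 (1.33 by print block). Both stayed higher in Δmed15 under either centring.

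Core histone genes had a median of 0.60 over 10 features by array median and −0.01 by print block, 5 higher and 5 lower. *htb1*, the H2B gene, read −0.09 and −0.68 in wildtype and 1.62 and 0.80 in Δmed15 (0.45 by print block). *hta2*, an H2A gene, read −3.27 and −2.62, within the level of the empty features, against −0.13 and −1.78 by array median with a difference of 0.04 by print block that turns to −0.48 in the 7-array fit.

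Chromatin genes showed no common direction. Remodeller ATPase genes had a median of −0.30 (−0.17 by print block) over 10 features, histone chaperone genes −0.23 (0.04) over 17 and heterochromatin silencing genes −0.10 (0.12) over 22, and none passed. Examples of the smallest p were *fft2*, a remodeller of the Fun30 type, 0.89 and 1.46 in wildtype and −0.70 and −0.24 in Δmed15 (−1.55 by print block); *snf22*, 1.43 and 1.15 against 0.13 and 0.07 (−0.41); and *nap1*, −0.66 and 0.03 against −2.55 and −3.04 (−1.48). The kinetochore assembly gene *mis18* read 1.98 and 2.61 against −0.53 and 0.07 (−1.07). In the silencing group *raf2*, of the CLRC ubiquitin ligase complex, read 0.11 and 0.68 against −1.74 and −2.41 (−1.61), and *clr6*, a histone deacetylase gene, −1.70 and −1.25 against 1.93 and 1.44 (2.03), so the 2 lay in opposite directions.

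The lists of nutrient and stress genes also had no passing member. The medians by array and by print block were 0.73 and −0.17 for 8 phosphate features, 0.08 and −0.02 for 14 of iron uptake, 0.41 and 0.37 for 7 of hexose transport, 0.66 and −0.10 for 14 of ammonium and amino acid uptake, and 0.05 and 0.17 for 15 of stress response. Members with the smallest p were *tgp1* (a glycerophosphodiester transporter gene), −0.22 and −0.61 in wildtype and 1.70 and 1.03 in Δmed15 (1.38 by print block), and *csk1* (a kinase upstream of phosphate genes), −1.86 and −1.42 against −2.48 and −3.26 (−1.44). For hexose transport they were *ght1*, 0.30 and −0.17 against 2.66 and 1.97 (1.12), and *ght8*, 1.16 and 1.19 against −0.56 and 0.11 (−1.30). In iron uptake *frp2*, a ferric-chelate reductase gene, read 2.98 and 3.13 against 1.13 and 1.49, and a long tile of *fio1*, a Cu oxidase gene of iron uptake, 0.22 and 0.85 against 2.58 and 2.39. By print block these last 2 differed by −0.40 and 0.01. The permease gene *isp5* read 0.43 and 0.72 against −0.38 and −0.80 (−0.69 by print block), and the stress genes *hsp9* and *hsp16* gave block-centred differences of −1.20 and 0.53.

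The single Tf2 retrotransposon feature read −1.64 and −1.20 in wildtype and 1.04 and 0.61 in Δmed15 (1.08 by print block) and did not pass. Over 163 subtelomeric features the median was −0.19 (−0.13 by print block), 92 lower and 71 higher, with *SPBPB2B2.19c* the only one to pass. The centromere and rDNA features below were grouped after their values were seen.

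At the centromeres the dg and dh repeats, which are packed in heterochromatin, read above the array median in both strains, and so did their Δmed15 input. The *dg1* repeat read 4.33 and 4.70 in wildtype and 4.06 and 3.92 in Δmed15, and the *dhII* repeat 4.28 and 4.35 against 3.74 and 3.65. By print block their differences were 0.09 and 0.23. The *dgII* repeat read 3.59 and 4.12 against 1.32 and 1.97 (−0.76 by print block), and the *dh1* repeat 2.59 and 2.79 against 1.49 and 2.14 (−0.47). All 4 repeats were thus lower in Δmed15 by array median, without overlap, and 2 of them by print block. The spacer between dh and dg went the other way, 2.61 and 2.70 in wildtype against 3.74 and 3.10 in Δmed15 (−0.37 by print block). Of 8 centromere features measured on all 4 arrays, 7 were lower and 1 higher by array median, all without overlap. By print block 6 were lower and 2 higher, with 5 lower and 0 higher without overlap. In the central cores the histone variant Cnp1 takes the place of H3 in many nucleosomes. Of these, *cnt1* read −0.85 and −1.63 in wildtype and −2.67 and −2.88 in Δmed15 (−0.69), and the central region of *cen3* 1.91 and 2.29 against 0.63 and 1.42 (−0.67). The *cnt3* core read −0.31 and −0.26 in wildtype and −4.48 and −3.76 in Δmed15 (−2.83 by print block), with a fitted difference of −4.09 and an adjusted p of 0.0921 that did not pass. Its Δhrp1 values were −4.73, −1.80 and −1.85. Input at *cnt3* on the Δmed15 arrays was −1.76 and −0.01 log2 units from the array median, so it was dim on 1 of the 2. The *cnt2* core was at −3.34 and −3.55 in wildtype and at −4.30 or the floor in Δmed15, within the level of the empty features on both wildtype arrays. The 18S rDNA promoter read 4.97 and 5.27 against 4.30 and 3.78 (−0.46 by print block), and its input on Δmed15 replicate 2 was at 65535 scanner units.

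H3 signal followed base composition to a like degree in both strains. An intergenic feature carries a gene's name and the files do not say on which side of the gene it lies, but Δmed15 input correlated with the GC content of the region upstream of the gene (Spearman 0.42 over 4470 features) more than downstream (0.11 over 4372). H3 signal by print block correlated with upstream GC content at 0.39 in wildtype and 0.32 in Δmed15, and the difference between strains at −0.01. From the lowest to the highest of 5 equal bins of features by GC content the median ChIP signal went from −0.58 to 0.56 on wildtype replicate 1 and from −0.57 to 0.58 on Δmed15 replicate 1. The input of Δmed15 replicate 1 went from −0.82 to 0.81. The bins differed little between strains, with median differences between −0.06 and 0.04. These correlations are across features of the same few arrays and are given as descriptions.

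**Figure D5:**
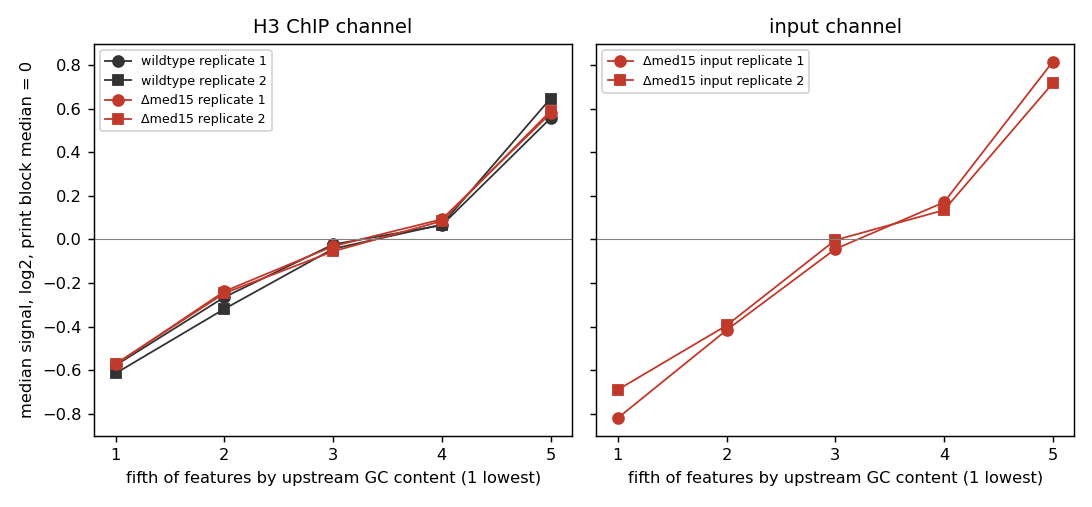
Median signal (log2, print block median at 0) of features in 5 equal bins by GC content of the region upstream of their gene, for the ChIP channel of the 4 arrays on the left and the input channel of the 2 Δmed15 arrays on the right. All lines climb together, the ChIP from about −0.6 to 0.6 and the input from −0.82 to 0.81 at most.

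Across all features, wildtype ChIP signal correlated with Δmed15 input at 0.77 and Δmed15 ChIP signal at 0.87 (Spearman, by print block), and the difference between strains at 0.35. Among the 100 features with the largest falls by array median, 51 were in the lowest 10% by Δmed15 input, and among the 100 with the largest rises, 1. By print block it was 69 and 1.

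The Med15-myc ChIP ratio on the same kind of array, the mean of 3 samples, correlated with the H3 difference at 0.09 by array median and −0.02 by print block (Spearman, 4851 features). The 100 features with the highest Med15-myc ratio had a median H3 difference of −0.58, 70 lower and 30 higher, and −0.20 by print block, 62 lower and 38 higher. Of the 100, 47 were in the lowest 10% by Δmed15 input, and the part of dim spots in their lower H3 signal was not tested.

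The difference over a gene's intergenic feature was nearly unrelated to that over its coding feature (Spearman 0.05 over 4457 genes by array median, 0.10 by print block). Coding arrays showed a print block share of 44.6% as well. Features of adjacent genes along the chromosome had correlated differences, 0.19 for the next gene under both centrings, and by print block 0.11 for the gene after it.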

How the data were processed

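The deposited value table holds log2 values for the spotted arrays. Comparison with the scanner intensity tables, which per the file headers give the median spot and local background signal of each dye, shows that for the deletion strains the authors subtracted the local background from the ChIP channel, divided by a constant, set a floor of log2(0.01) and made no use of input. For wildtype no scanner tables were used here, so that make-up is inferred. The sources used here name no software for this step.

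Spots were named from the scanner tables by position. Values at the floor were set to missing, 208 features whose names end in Missing were left out, each array was centred on its median, and the spots of a feature were averaged. limma 3.58.1 in R 4.3.3 fitted all 7 intergenic H3 arrays (2 wildtype, 2 Δmed15, 3 Δhrp1) by strain and ChIP dye, a term estimated from the deletion strains only. The fit was run on simulated arrays with added changes. These held no dye or print block effect, so the handling of both was not tested. p-values are two-sided, adjusted by Benjamini-Hochberg over 4878 features, threshold 0.05. Errors after ± are standard errors. Of the intergenic features in the scanner tables, those named Missing left out, 4753 matched 1 gene of ASM294v3, 20 several and 188 none.

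Named features were *med15* and *hrp1*, all called ones, the 10 each way with the smallest unadjusted p whose strain means were both above −4 and whose strains did not overlap, and of each gene list the called members or else up to 2 with the smallest p; any other is named as chosen after its values were seen. The members and lists were chosen with earlier results of these data known. For *pgk1*, *snf22*, *tgp1*, *cox18* and *ecm33* another intergenic feature carried the same gene name, and its values are not given here. Alternatives were dye, spread, quantile, print block, floor, filter, samples, spots, variance trend, replicate block and leaving out each sample.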

Additional observations from a re-analysis of the deposited data

How the results depend on the processing

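The count of 9 features depended on the processing. Without a term for dye it was 58 (38 higher, 20 lower), and only 3 of the 9 were among these. The 9 then had limma adjusted p-values of 0.00833 to 0.0877. It was 412 (170 and 242) when all arrays were given 1 spread and 408 (197 and 211) after quantile normalization, each with all 9. With floor values kept it was 14 (2 and 12), with 7 of the 9. Among features measured in all 7 samples it was 5 (1 and 4), all of them among the 9. A trend in the prior variance gave 22 (13 and 9), with 6 of the 9. The 4 Δmed15 and wildtype arrays alone gave 1801 (885 and 916), with all 9. It was 0 with the Cy3 arrays alone, where 508 features had an unadjusted limma p under 0.05, and 894 (386 and 508) with print blocks and the 4 arrays alone. Leaving out one array gave 0 to 569: 0 without wildtype replicate 1 (514 with an unadjusted p under 0.05), Δmed15 replicate 1 (509), Δmed15 replicate 2 (854) or Δhrp1 replicate 3 (515), 1 without wildtype replicate 2, 15 without Δhrp1 replicate 2 and 569 without Δhrp1 replicate 1. With 1 array left in a strain, that array is assumed to vary like the others. Without Δhrp1 replicate 3 the only array with ChIP DNA in Cy5 was Δmed15 replicate 1, so the dye term took up that array. The difference then rested on Δmed15 replicate 2, as with the Cy3 arrays alone or without Δmed15 replicate 1 (*tom20* at −4.91 in each). The cause of the other changes in the count was not tested. Print blocks with all 7 arrays and the median of the spots, which for 2 spots is their mean, gave 9 again.

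With the replicate number as a block (replicate block) the count was 0 of 9, with 658 features at an unadjusted limma p under 0.05; the 9 had adjusted p-values of 0.0548 to 0.0917. The numbers come from the labels, which do not say that they mark a shared day or culture, and the differences of replicate 1 and 2 correlated at 0.19 between wildtype and Δmed15, 0.15 between wildtype and Δhrp1 and 0.20 between the deletions.

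The 9 called features kept their direction in all 166 values under an alternative. Of 1331 such values for 71 named features, 1014 kept direction and side of the threshold, 221 moved past it, 77 no longer passed and 19 changed sign, all of features that do not pass. By print block with 7 arrays the sign changed for *hta2* (−0.48), the 18S-x2 rDNA promoter (0.39), tRNA-Ile (−0.36), tRNA-Ser (−0.33), the central region of *cen3* (0.016), *dg1* (0.50), *dh1* (0.16), *dhII* (0.72) and the spacer between dh and dg (−0.10). By print block with 4 arrays it changed for tRNA-Ser (−0.023), *cnt2* (0.10), *dg1* (0.088), *dhII* (0.23) and the spacer (−0.37). With 1 array left out, the lowest and highest values were −0.92 and 0.74 for *hrp1*, −1.18 and 0.37 for the 18S-x2 promoter, −0.60 and 0.14 for *dg1*, −0.66 and 0.61 for *dhII* and −0.33 and 1.55 for tRNA-Ser. Low ChIP signal over background limits every called feature in 1 of its strains, and 2 arrays per strain limit the precision of all values.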
